A study of Populus euphratica with 12 samples.

Results

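Broad-ovate (Bo) and lanceolate (La) leaves of Populus euphratica, a desert poplar that carries differently shaped leaves as it ages, were compared by small RNA sequencing. The comparison used the 3 libraries labelled Bo1 to Bo3, from trees over 20 years old, and the 3 labelled La1 to La3, from trees 4 to 6 years old, out of 12 libraries in all. The other 6 libraries, from linear (Li) leaves of trees up to 3 years old and ovate (Ov) leaves of trees 8 to 12 years old, entered the statistical model and are otherwise given only as context. All were second juvenile leaves, taken at one site in one month, and the labels give no treatment. Of the 257 miRNAs listed in every library, 214 had a mean of at least 1 RPM, a read count scaled to a total of 1000000 per library, over the 6 libraries and were tested: 142 annotated miRNAs, 52 predicted ones and 20 star sequences, the partner strands of predicted precursors. The other 43 had at most 2 reads in any of the 6 libraries, and 16 of them had no read in any of the 6. The comparison addressed which miRNAs differ between a narrow leaf form of young trees and the widest leaf form of old trees. Leaf shape and tree age cannot be told apart in this design. The study calls the libraries of a group biological replicates, and the labels do not say whether each came from a separate tree, so the p-values measure only the spread between these libraries.

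MicroRNAs are short RNAs that guide ARGONAUTE proteins to messenger RNAs with a matching site, which in plants are mostly cleaved. Many plant families have kept their targets across flowering plants: miR156 acts on SPL transcription factors and is high in juvenile shoots, whereas miR172 acts on AP2-like factors and usually rises as shoots mature. Other conserved families act on factors that set leaf outline, polarity and growth, on hormone signalling, or on phosphate and sulfate supply and copper proteins. The names ptc and peu stand for P. trichocarpa and P. euphratica, and the predicted miRNAs carry the name of their genome scaffold (assembly PopEup_1.0) and a number. No mature or precursor sequence and no annotation of the scaffold positions was used here.

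The libraries held 199583 to 318495 reads on listed miRNAs in Bo and 268012 to 435399 in La, so that 1 read was worth 3.14 to 5.01 RPM in Bo and 2.30 to 3.73 RPM in La. Where a miRNA had no read, its level could still reach 9.42 to 15.0 RPM in a Bo library and 6.89 to 11.2 RPM in a La library (the worth of 3 reads, for counting error alone). One miRNA, ptc-miR159a, took 30.8% to 39.0% of the reads in Bo and 36.8% to 40.0% in La, and the 5 most abundant together 64.4% to 66.5% and 67.2% to 72.0%. Pearson correlations of log2(RPM + 1) over the tested miRNAs were 0.920 to 0.967 between Bo libraries, 0.911 to 0.939 between La libraries and 0.890 to 0.913 between a Bo and a La library. Same-numbered La and Ov libraries deviated together from their group means (correlations 0.23, 0.50 and 0.50 over the tested miRNAs), which same-numbered Bo and La libraries did not (0.03, -0.19 and -0.20). The labels do not say what a number stands for. If La and Ov libraries are not independent, the p-values below, whose spread is taken over all 12 libraries, may be too small. In a fit of the 6 Bo and La libraries alone, 6 of the 8 miRNAs called below kept an adjusted p under 0.05, and peu-miR2916 (0.10) and ptc-miR477a-5p (0.11) did not. In bulk leaf tissue, fewer cells of a type and less of a miRNA per cell cannot be told apart.

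A small set of miRNAs differed strongly between Bo and La leaves, most of them lower in Bo, while 186 of the 214 passed neither threshold used here. With limma on log2(RPM + 1) and Benjamini-Hochberg adjustment over the 214 miRNAs, 8 passed an adjusted p of 0.05 (3.74% of those tested), of which 2 were higher in Bo (0.935%) and 6 lower (2.8%). The 6 that fell were both miR156 sequences, both arms of ptc-miR477a, ptc-miR169n-3p and the predicted NW_011500122.1_25017. The 2 that rose were the predicted NW_011500067.1_22368 and peu-miR2916. At an unadjusted p under 0.05, 28 passed (13.1%), 13 higher in Bo (6.07%) and 15 lower (7.01%). The 3 Bo values lay wholly above or below the 3 La values for 40 miRNAs (18.7%), 20 above (9.35%) and 20 below (9.35%). These included all 8 of the adjusted set and 24 of the 28, which had been selected on the same values. The direction of the smaller changes depended on scaling. Over all tested miRNAs the median change was a log2 value of 0.15 as deposited and -0.04 with RLE scaling (the median ratio to the geometric mean), and with RLE scaling 9 of 28 were higher in Bo. With the total taken without ptc-miR159a, 10 of 27 were higher. The same 8 miRNAs passed the adjusted threshold under both scalings.

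**Figure D1:**
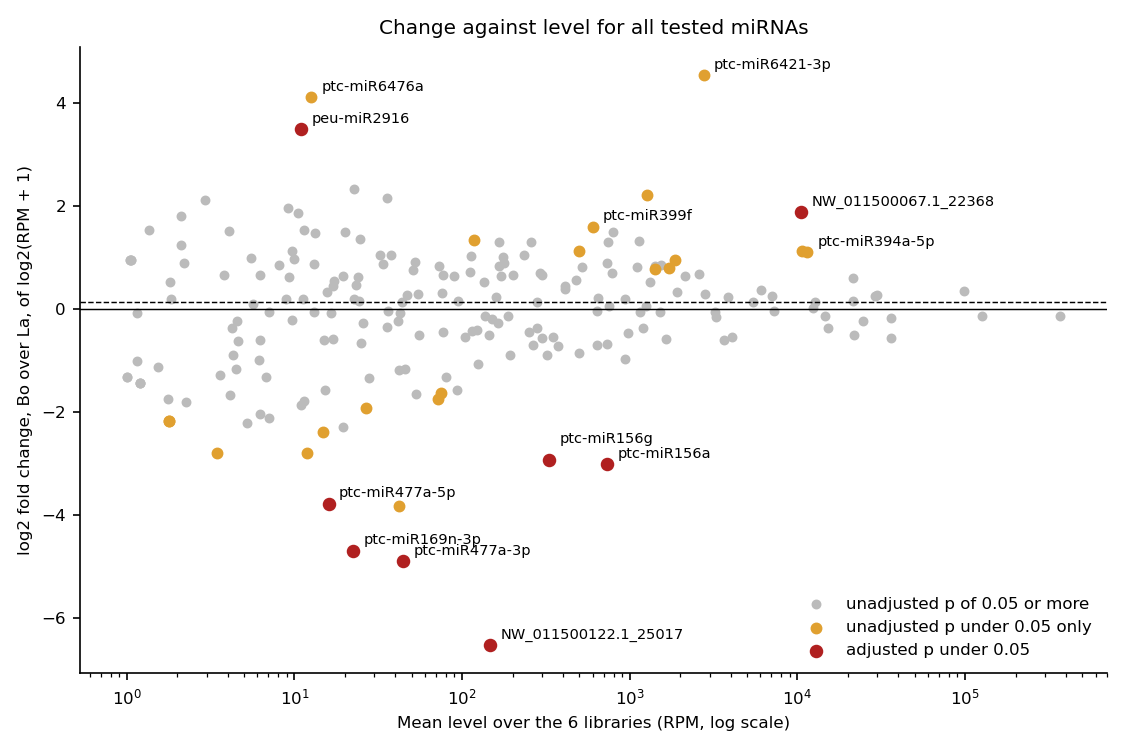
Change against level for the 214 tested miRNAs: the x axis is the mean over the 6 libraries in RPM (log scale) and the y axis the log2 fold change, Bo over La, of log2(RPM + 1). Red points passed the adjusted threshold (8), yellow points only the unadjusted one (20), and the dashed line is the median of 0.15; the red points below 0 reach -6.52.

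The miR156 family, the regulator of SPL factors that marks juvenile shoots, was about 8-fold lower in Bo leaves. For ptc-miR156a the values were 195, 174 and 116 RPM in Bo1 to Bo3, against 923, 1407 and 1585 RPM in La1 to La3. Every Bo library was below every La library, and the lowest La value was several times the highest Bo value. The log2 fold change was -3.001 ± 0.39 (SE; limma adjusted p = 0.00045), and the pooled reads, 131 in Bo and 1433 in La, gave a ratio La/Bo of 8.18 (95% exact interval 6.84 to 9.86, counting error only). The second sequence, ptc-miR156g, was at 60.1, 63.2 and 109.9 RPM in Bo, against 583, 459 and 713 RPM in La. Again the groups stood apart, with a log2 fold change of -2.93 ± 0.41 (SE; limma adjusted p = 0.00045) and a pooled ratio La/Bo of 7.49 (5.82 to 9.78). The listed members ptc-miR156k and ptc-miR156l had no read in Bo, and together 2 reads in La, and were not tested. The summed family was at 239.5 ± 14.9 RPM in Bo and 1892 ± 396.5 RPM in La (SD, n = 3 each). The sources used here do not tell how reads matching several members were divided, so the division between ptc-miR156a and ptc-miR156g is uncertain. Both stayed past the adjusted threshold in all 16 alternatives.

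No member of miR172, the AP2 regulator that in many plants moves against miR156, passed either threshold. Its most abundant member, ptc-miR172a, had 6153, 5437 and 5262 RPM in Bo, against 5572, 6362 and 3656 RPM in La. The values overlapped, and the log2 fold change of 0.15 had a 95% interval of -0.58 to 0.88 (limma), which leaves out a 2-fold change in either direction. Of the 6 tested miR172 members, 2 had a log2 fold change above 0 as deposited and 1 with RLE scaling, under which ptc-miR172a itself was at -0.04. The family sum was 6256 ± 658 RPM in Bo and 5860.0 ± 1696 RPM in La (SD, n = 3 each), a log2 ratio of 0.09 that became -0.10 with RLE scaling.

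Both arms of ptc-miR477a, a member of a small family described in poplar, were nearly absent from Bo leaves. The 3p arm had 5.01, 3.16 and 0 RPM in Bo, against 78.1, 82.1 and 99.4 RPM in La. The La libraries were close to each other, and the Bo values correspond to 2 reads in the 3 libraries together, against 97 in La. The log2 fold change was -4.90 ± 0.72 (SE; limma adjusted p = 0.00060), and the pooled ratio La/Bo was 36.3 (95% exact interval 9.77 to 304). The 5p arm had 0, 0 and 6.28 RPM in Bo, against 29.9, 11.2 and 48.5 RPM in La, or 2 against 36 reads. Its log2 fold change was -3.77 ± 0.92 (SE; limma adjusted p = 0.033), and its pooled ratio La/Bo was 13.5 (3.47 to 115). The call of the 5p arm rested on single libraries: its adjusted p in limma was 0.18 without Bo1, 0.21 without Bo2, 0.15 without La1 and 0.13 without La3, with a log2 fold change of -4.73 to -3.30 when any library was left out. The call of the 3p arm held in all 16 alternatives. The third member, ptc-miR477d-5p, had 0 reads in Bo and 3 in La and was not separable at this depth.

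The miR169 family acts on NF-YA subunits of a trimeric transcription factor. Within it ptc-miR169n-3p, an arm whose own targets were not examined here, fell in Bo leaves. It had 0, 0 and 3.14 RPM in Bo, against 36.7, 26.1 and 67.9 RPM in La. Bo3 held the only Bo read, against 51 reads in La, so the log2 fold change of -4.69 ± 0.81 (SE; limma adjusted p = 0.0024) depends on the pseudocount and ran from -6.98 to -2.22 over the alternatives. The pooled ratio La/Bo was 38.1 (95% exact interval 6.54 to 1536). None of the other 12 tested members passed either threshold, and its own 5p arm had 0 reads in Bo and 2 in La. The most abundant member, ptc-miR169d, had 40.1, 31.6 and 34.5 RPM in Bo, against 16.1, 18.7 and 7.27 RPM in La, a log2 fold change of 1.37 whose 95% interval ran from -0.16 to 2.89 (limma). The 3 Bo values of ptc-miR169a (10.02, 9.48 and 34.5 RPM) also lay above its 3 La values (2.30, 7.46 and 4.85 RPM), without passing either threshold. Of the 13 tested miR169 members, 3 had a log2 fold change above 0 and 10 below, with a median of -0.99, or -0.22 with the 4 members at 0 reads in one of the groups set to their bound against 3 pooled reads. Over all 214 miRNAs the same medians were 0.15 and 0.01. The family sum, 99.9 ± 29.9 RPM in Bo and 122 ± 39.6 RPM in La (SD, n = 3 each), overlapped between the groups.

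The predicted miRNA NW_011500122.1_25017, whose precursor spans 327843 to 327911 (plus strand), had the largest fitted decrease. It was at 0, 3.16 and 3.14 RPM in Bo, against 296, 489 and 89.7 RPM in La. The groups did not overlap, although the La libraries themselves differed severalfold, and the 3 Bo libraries held 2 reads against 297 in La. The log2 fold change was -6.52 ± 0.88 (SE; limma adjusted p = 0.00045) and the pooled ratio La/Bo 111 (95% exact interval 30.5 to 921). Its call held in all 16 alternatives. Its star sequence was not among the tested miRNAs.

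In the other direction, the predicted miRNA NW_011500067.1_22368 (precursor at 59999 to 60076, plus strand) was the only miRNA with a mean of 1000 RPM or more to pass the adjusted threshold. It had 10101, 19004 and 20296 RPM in Bo, against 3139.7, 3918 and 6318 RPM in La. All Bo values were above all La values, and Bo1 was lower than Bo2 and Bo3. The means were 16467 ± 5550.5 RPM in Bo and 4458 ± 1656 RPM in La (SD, n = 3 each), a log2 fold change of 1.88 ± 0.37 (SE; limma adjusted p = 0.0074), on 14495 and 5023 reads. The adjusted p in limma was 0.082 without Bo2, 0.055 without Bo3 and 0.077 without La1, with a log2 fold change of 1.66 or more when any library was left out. Its star sequence, with 7 reads in Bo and 5 in La, had a log2 fold change of 0.67 with a 95% interval of -1.84 to 3.18 (limma).

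The second miRNA that rose, peu-miR2916, the only listed miRNA under a P. euphratica name, rested on few reads. It had 20.0, 28.4 and 12.6 RPM in Bo, against 0, 0 and 4.85 RPM in La, or 17 against 2 reads. No La library reached the lowest Bo library, but the highest La value was a count of 2. The log2 fold change was 3.50 ± 0.83 (SE; limma adjusted p = 0.030) and the pooled ratio Bo/La 11.4 (95% exact interval 2.70 to 101). The adjusted p in limma was 0.12 without Bo1, 0.13 without Bo2, 0.12 without La1 and 0.13 without La2, and it stayed under 0.05 without Bo3 or La3. The log2 fold change was 3.07 to 4.35 when any library was left out. The adjusted p was also 0.059 or 0.22 with a replicate block, over all samples or only the 6.

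**Figure D2:**
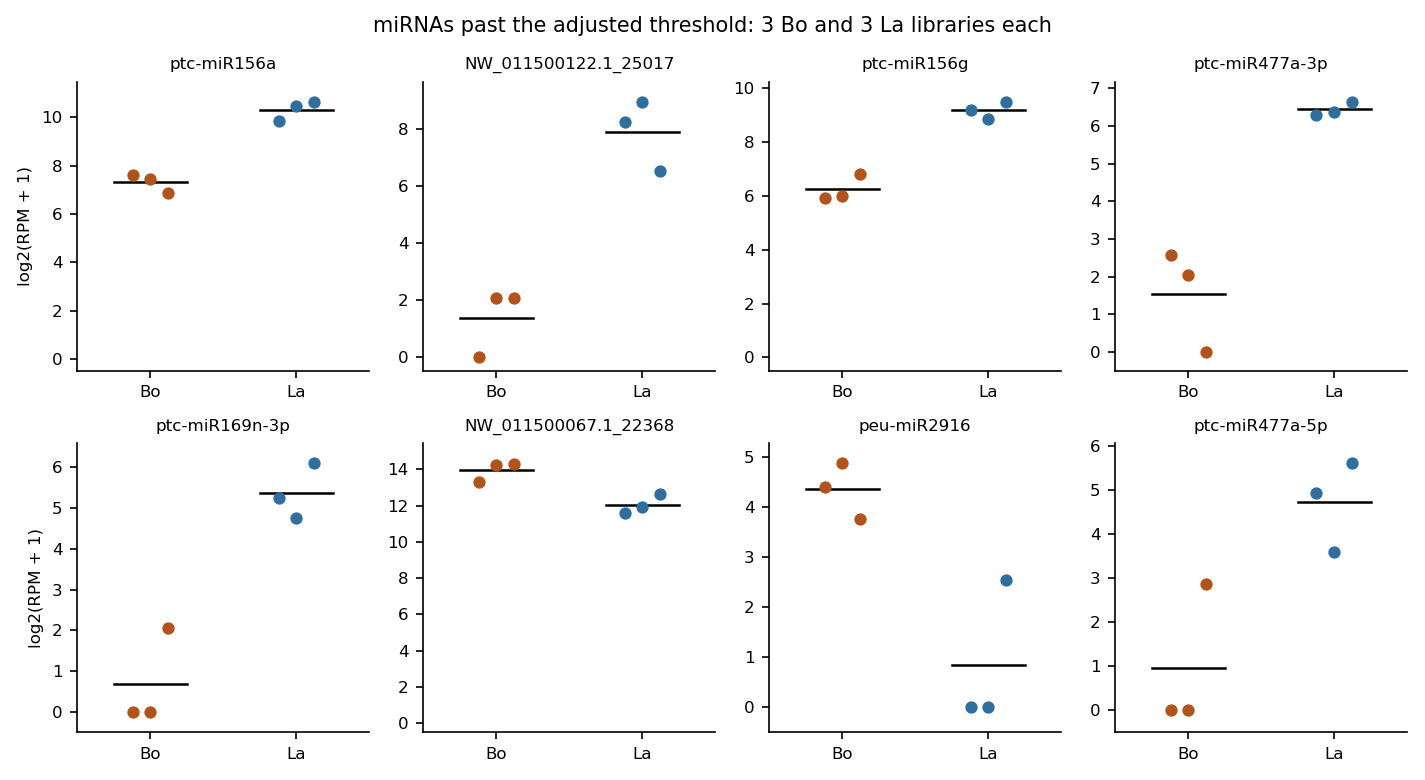
The 8 miRNAs with an adjusted p under 0.05, as log2(RPM + 1) in each library; points are the 3 Bo (brown) and 3 La (blue) libraries and lines the group means. In every panel the 3 Bo points lie wholly below the 3 La points, or, for NW_011500067.1_22368 and peu-miR2916, wholly above them.

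Seen across all 4 leaf types, the 6 miRNAs that fell were lowest in Bo leaves. The means of ptc-miR169n-3p were 98.8, 43.6, 64.1 and 1.05 RPM in Li, La, Ov and Bo leaves, and those of ptc-miR477a-5p were 59.2, 29.8, 29.6 and 2.09 RPM. For NW_011500122.1_25017 they were 171.5, 292, 233 and 2.10 RPM. In these 3 miRNAs the highest Bo library lay below every one of the other 9 libraries. NW_011500067.1_22368 had means of 2008, 4458, 7122 and 16467 RPM. Those of peu-miR2916 were 6.17, 1.62, 4.04 and 20.3 RPM, with La the lowest of the 4. The Ov mean fell between the La and Bo means for 7 of these 8 miRNAs and for 88 of the 214 (41.1%). The 8 had been selected for the distance between Bo and La, so nothing follows from the larger share.

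**Figure D3:**
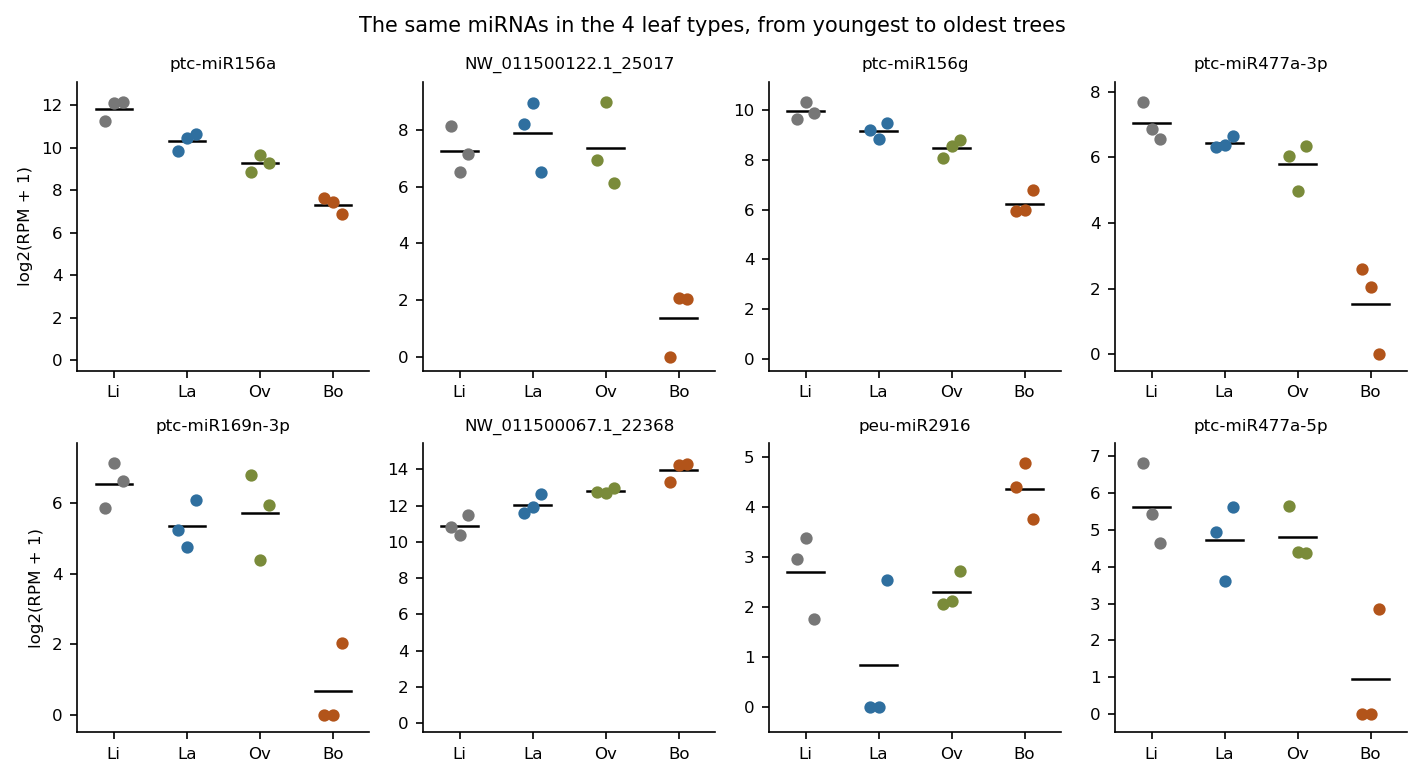
The same 8 miRNAs as log2(RPM + 1) in the 3 libraries of each leaf type, ordered by tree age (Li, La, Ov, Bo); points are libraries and lines are group means. In the 6 miRNAs that were lower in Bo than in La, the Bo points are below the points of all the other leaf types.

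A further 20 miRNAs passed the unadjusted threshold only, 11 higher and 9 lower in Bo. Of these, 16 had values that did not overlap, against 18.7% of all tested. The 20 had been selected on the same values, so nothing follows from their larger share. Their adjusted p ranged upwards from 0.064, so the values below are descriptions. Of all 214, 6.07% passed higher and 7.01% lower. Of the 46 tested miRNAs at a mean of 1000 RPM or more, 8 passed the unadjusted threshold higher in Bo and 0 lower, and with RLE scaling 5 and 0 (median log2 fold change 0.24, or 0.06 with RLE scaling). Of the 63 at 10 to 100 RPM, 2 passed higher and 9 lower (median 0.15, or -0.03 with RLE scaling). Of the 55 between these levels 3 passed in each direction, and of the 50 under 10 RPM 0 passed higher and 3 lower.

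The abundant ones included some members of leaf-patterning families, while other members of such families did not pass. Of the 5 tested miR166 and miR390 sequences 2 passed the unadjusted threshold, and of the 4 of miR164 and miR394 1 passed, against 13.1% of all tested. None of the 3 tested miR319 members passed. ptc-miR394a-5p, whose Arabidopsis counterpart acts on an F-box gene of the shoot meristem and leaf, had 12942, 14650.0 and 19099 RPM in Bo, against 7232, 5888 and 8461 RPM in La. ptc-miR390a, which starts the production of small RNAs against auxin response factors from TAS3 transcripts, had 14676, 14944 and 14022 RPM in Bo, against 7841, 4791 and 7813 RPM in La. In both, every Bo library was above every La library, and the 3 Bo values of ptc-miR390a were within a narrow range. The log2 fold changes were 1.11 (standard error 0.31) and 1.13 (standard error 0.32), each with an adjusted p of 0.064 in limma, and both kept an unadjusted p under 0.05 in all 16 alternatives. The other listed miR390 sequence, ptc-miR390d-3p, was at 1954, 1753 and 3689 RPM in Bo, against 1902, 959 and 945 RPM in La, with Bo2 below La1 (log2 fold change 0.96, adjusted p = 0.37 in limma). The family sum of miR390 was 17013 ± 606 RPM in Bo and 8084 ± 2080.3 RPM in La (SD, n = 3 each).

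Single members of miR396, miR399 and miR171 also had every Bo library above every La library, which the other tested members of these families did not. Within groups ptc-miR396f and ptc-miR399f spread more widely than ptc-miR390a and ptc-miR394a-5p, and ptc-miR171e about as much. ptc-miR396f, of the family that acts on growth-regulating factors, had 2891, 2613 and 769 RPM in Bo, against 498, 187 and 618 RPM in La. Bo3 was far below the other Bo libraries and only slightly above La3, and the adjusted p of its log2 fold change of 2.22 (standard error 0.90) was 0.34 in limma. ptc-miR399f, of the family that acts on the phosphate regulator PHO2, had 1117, 913 and 641 RPM in Bo, against 232, 198 and 502 RPM in La, a log2 fold change of 1.61 ± 0.50 (SE; limma adjusted p = 0.11). Its adjusted p was 0.046 without La3, the highest La library, and 0.14 to 0.33 without any one of the others. ptc-miR171e, of the family that acts on GRAS factors of the HAM group, had 1854, 2449 and 2173 RPM in Bo, against 1169, 948 and 1692 RPM in La (log2 fold change 0.80, adjusted p = 0.37 in limma). With RLE scaling ptc-miR171e, ptc-miR390d-3p, ptc-miR482c-5p and NW_011499965.1_16822 no longer passed the unadjusted threshold.

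Some of the fitted increases rested on single libraries or a few reads. ptc-miR6476a had 25.1, 47.4 and 3.14 RPM in Bo and 0 RPM in all 3 La libraries, with 21 reads in Bo in all. Against 3 reads over the pooled La libraries it was at least 9.36-fold higher in Bo, but at least 4.31-fold without Bo2, which held 15 of the reads. The adjusted p was 0.064 in limma with all libraries and 0.026 without Bo3, which held a single read, but 0.13 to 0.28 without any one of the others. ptc-miR6421-3p, named after its values were seen, had 3838, 4297 and 2914 RPM in Bo, against 9.19, 5414 and 67.9 RPM in La, so that La2 was above every Bo library while La1 and La3 were near the bottom of the range. Its log2 fold change of 4.54 had a standard error of 2.01 (adjusted p = 0.37 in limma), and the adjusted p was 0.026 without La2 and 0.41 to 0.65 without any one of the others, with a log2 fold change of 2.57 to 7.10. The predicted NW_011499986.1_17983 (precursor at 139308 to 139384, minus strand) had 611, 989 and 458 RPM in Bo, against 198, 332 and 405 RPM in La, and its star sequence 246, 186 and 198 RPM against 126, 160.4 and 114 RPM, both without overlap. NW_011499986.1_17983, with a log2 fold change of 1.125, passed the unadjusted threshold in 13 of the 16 alternatives. It did not pass without Bo2 or La1 (unadjusted p = 0.092 and 0.082 in limma). NW_011499965.1_16822 (305165 to 305226, minus strand) had 110.2, 82.1 and 342 RPM in Bo, against 57.4, 59.7 and 53.3 RPM in La. It passed the unadjusted threshold in only 4 of the 16 alternatives. Without Bo3 its log2 fold change was 0.74 (unadjusted p = 0.18 in limma).

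The miRNAs that were lower in Bo at the unadjusted threshold alone all averaged under 100 RPM over the 6 libraries. The predicted NW_011499850.1_2817, whose precursor spans 666720 to 666810 (plus strand), had 40.1, 22.1 and 50.2 RPM in Bo, against 108, 123 and 104 RPM in La. Its La libraries agreed closely, and its star sequence had 0 reads in Bo against 7 in La. The log2 fold change was -1.62 ± 0.55 (SE; limma adjusted p = 0.16). Within the miR6462 family, ptc-miR6462e had 20.0, 12.6 and 3.14 RPM in Bo, against 27.6, 59.7 and 36.4 RPM in La, and ptc-miR6462c-5p 20.0, 56.9 and 21.98 RPM against 62.0, 175 and 94.5 RPM. Neither overlapped between the groups. ptc-miR6438a had 0, 12.6 and 6.28 RPM in Bo, against 23.0, 22.4 and 24.2 RPM in La. ptc-miR478a and ptc-miR7827 had 0 reads in Bo and 4 reads each in La, so that a difference was not measurable at this depth. NW_011500547.1_31396 (125870 to 125929, plus strand), named after its values were seen, had 0, 0 and 75.4 RPM in Bo, against 68.9, 56.0 and 53.3 RPM in La, and its adjusted p was 0.24 in limma with all libraries, 0.0068 without Bo3 and 0.27 to 0.49 without any one of the others. Its unadjusted call was lost without Bo1, Bo2 or La1.

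Of the 73 annotated families, the sums of 5 were higher in Bo without overlap under all 3 scalings (miR160, miR390, miR394, miR2916 and miR6476). Those of 8 were likewise lower (miR156, miR477, miR1448, miR6430, miR6438, miR6448, miR6462 and miR7827). Over all 214 single miRNAs, 18.7% did not overlap as deposited. That share counts miRNAs under 1 scaling, so it is not a like measure for family sums under all 3. Of these families miR2916, miR6476, miR1448, miR6430, miR6438, miR6448 and miR7827 have 1 listed member each, so their sums repeat single miRNAs. That of miR7827 rested on 0 reads in Bo and 4 in La. These families were picked by the same values that set them apart, and no sum was tested. The family groups used elsewhere in this text had been drawn up with earlier results of the data known. The miR394 sum was 15584 ± 3200.3 RPM in Bo and 7205 ± 1286 RPM in La (SD, n = 3 each), without overlap. miR164, which acts on NAC genes of leaf margins, overlapped in its sum, 1357 ± 711 RPM in Bo and 1152 ± 74.6 RPM in La (SD, n = 3 each), and ptc-miR164a had a log2 fold change of 0.06 with a 95% interval of -1.01 to 1.13 (limma). The miR160 family, which acts on repressive auxin response factors, summed to 6150.2 ± 1083 RPM in Bo and 3755 ± 672 RPM in La (SD, n = 3 each), again without overlap. All 6 tested miR160 members had a log2 fold change above 0, with a median of 0.74 (0.55 with RLE scaling), yet none passed the unadjusted threshold. Nearest was ptc-miR160a, named after its values were seen, with 2390.0, 2840.3 and 2556 RPM in Bo, against 1578, 1892 and 1513 RPM in La (adjusted p = 0.38 in limma). miR167, on activating auxin response factors, had 1 of 5 members above 0, and miR393, on auxin receptors, 1 of 2.

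The polarity regulator miR166, which restricts HD-ZIP III genes to the upper side of the leaf, was abundant in all libraries. ptc-miR166a had 123943, 100092 and 136643 RPM in Bo, against 137635, 123916 and 132048 RPM in La. The values overlapped and the log2 fold change of -0.14 had a 95% interval of -0.62 to 0.34 (limma). ptc-miR166n was more variable, at 95795, 77392 and 157440.0 RPM in Bo and 116661, 83537 and 57428 RPM in La. For the MYB and TCP regulators, ptc-miR159a gave a log2 fold change of -0.12 with a 95% interval of -0.48 to 0.23. ptc-miR319a, of the family that acts on TCP genes of leaf growth, had 23775, 34124 and 26748 RPM in Bo, against 46968, 24312 and 59724 RPM in La. La2 lay among the Bo values, and the log2 fold change of -0.55 did not pass (95% interval -1.24 to 0.14, limma). All 3 tested miR319 members had a log2 fold change below 0, under each scaling. In the miR396 group 4 of 6 members were above 0 as deposited and 3 with RLE scaling, and the sums of 23247 ± 9086 RPM in Bo and 20984 ± 8149.9 RPM in La (SD, n = 3 each) overlapped. The miR171 sum was 4113 ± 664 RPM in Bo and 2800.2 ± 401 RPM in La (SD, n = 3 each). Its groups did not overlap as deposited or with RLE scaling, but did with the total taken without ptc-miR159a.

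Of the 5 tested phosphate miRNAs 1 passed the unadjusted threshold in each direction, where 13.1% of all tested passed. The miR399 sum was 898 ± 243 RPM in Bo and 355 ± 214 RPM in La, and miR2111 was at 363 ± 53.1 RPM in Bo and 223 ± 50.4 RPM in La (SD, n = 3 each). Both were higher in Bo without overlap as deposited, but overlapped when the total left out ptc-miR159a. The miR399 sum was nearly all ptc-miR399f, and of the 3 tested miR399 members 1 had a log2 fold change above 0 and 2 below. The sum of the whole phosphate group overlapped under all 3 scalings. It was 3190 ± 1244 RPM in Bo and 1722 ± 801 RPM in La. The one that passed lower in Bo, ptc-miR399e, had 0 reads in Bo and 0, 1 and 28 reads in La1 to La3. ptc-miR827, the other phosphate regulator, had 2676, 2275 and 835 RPM in Bo, against 2193, 675 and 565 RPM in La, and overlapped. The sulfate regulator ptc-miR395b had 421, 313 and 754 RPM in Bo, against 537, 1082 and 725 RPM in La, a log2 fold change of -0.69 (95% interval -2.03 to 0.64, limma). Among the copper-responsive miRNAs none of 7 passed. Their most abundant member, ptc-miR398b, on copper/zinc superoxide dismutases, had 120.3, 196 and 295 RPM in Bo, against 436, 358 and 189 RPM in La. The miR408 sum was 181 ± 113 RPM in Bo and 84.4 ± 28.1 RPM in La (SD, n = 3 each), and overlapped under all 3 scalings.

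**Figure D4:**
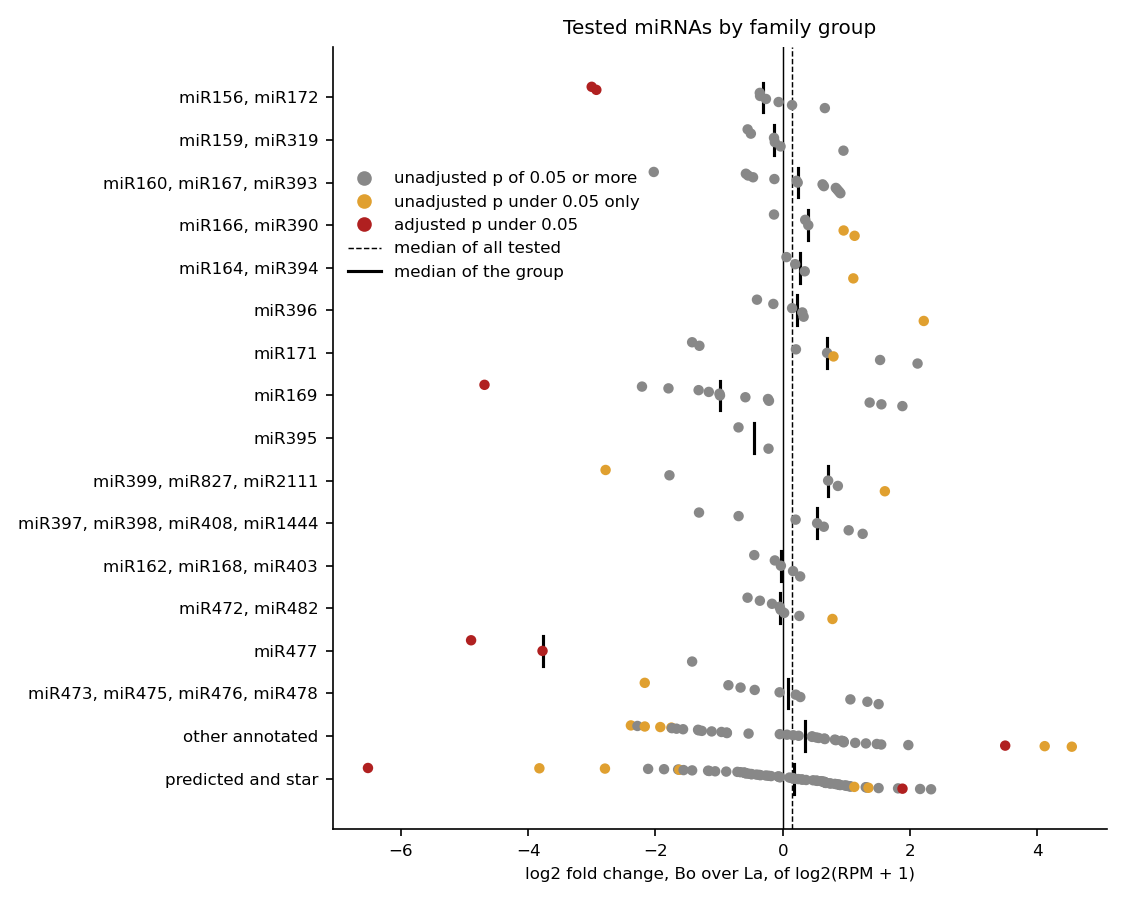
Log2 fold change, Bo over La, of log2(RPM + 1) for each of the 214 tested miRNAs, grouped by family; red points passed the adjusted threshold, yellow points only the unadjusted one, short black bars are group medians and the dashed line is the median of all (0.15). miR477 has the lowest group median, -3.77, and in the group of miR156 and miR172 the miR156 sequences stand apart from the others.

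Several abundant miRNAs had narrow limits on any change. For 15 of the 214 miRNAs (7.01%) the whole 95% interval lay within a 2-fold change. These were ptc-miR159a, ptc-miR159d, ptc-miR166a, ptc-miR172a, ptc-miR475a-3p, ptc-miR6471, both arms of ptc-miR168a, ptc-miR403a, ptc-miR472a, ptc-miR472b, ptc-miR482a.2, both strands of NW_011499886.1_10127 and the star of NW_011500334.1_29125. The list holds the miRNAs on ARGONAUTE genes, miR168 and miR403, of which 3 of 4 tested sequences are in it. ptc-miR168a-3p had 13969, 14331 and 13501 RPM in Bo, against 15492, 15290.4 and 14754 RPM in La. Its groups did not overlap, yet the log2 fold change was -0.12 with an interval of -0.56 to 0.32 (limma). ptc-miR162a, which acts on a Dicer-like gene, spread more widely, at 28089, 37539.6 and 27134 RPM in Bo and 15094, 21936 and 48841 RPM in La. Among miR472 and miR482, which act on NBS-LRR receptors, ptc-miR472b had 33415, 38854 and 28936 RPM in Bo, against 30583, 32140.4 and 54158 RPM in La. Of the 8 in this group 1, ptc-miR482c-5p, passed the unadjusted threshold, a share near the 13.1% of all tested, with 2465, 1441 and 1473 RPM in Bo and 1249, 914 and 899 RPM in La. Its other arm, ptc-miR482c-3p, was more abundant (7017 against 1407 RPM over the 6 libraries). That arm had a log2 fold change of 0.26 and did not pass. The targets of the single arms were not examined. Of the other poplar families, 10 tested members of miR473, miR475, miR476 and miR478 had log2 fold changes between -2.17 and 1.51, and none passed the adjusted threshold.

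**Figure D5:**
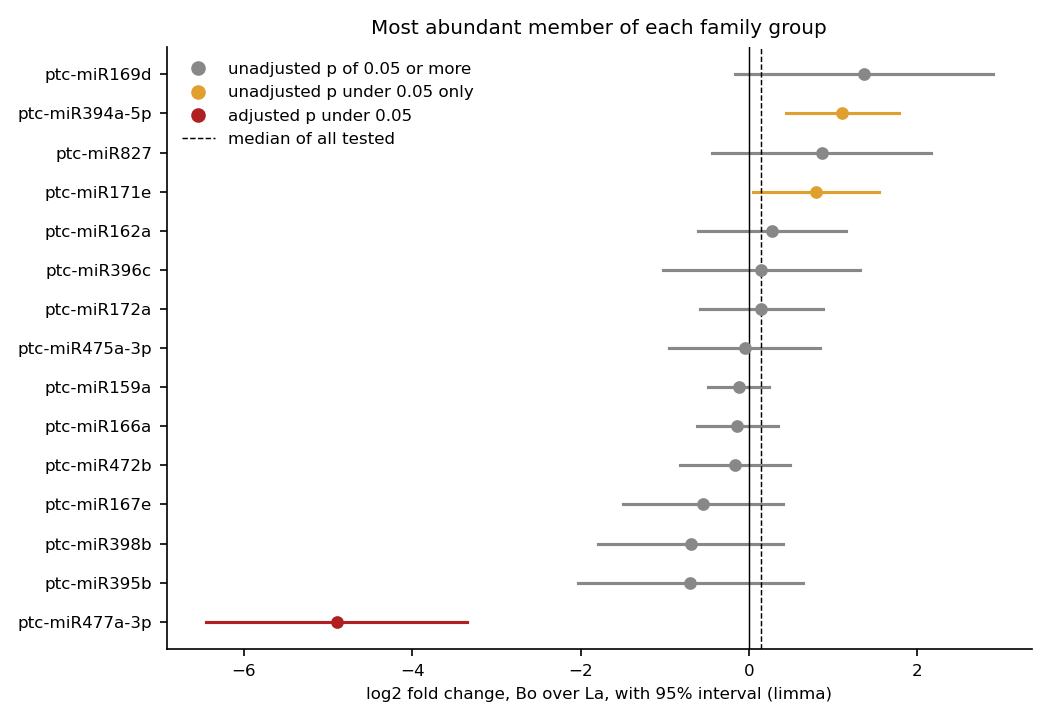
The most abundant tested member of each of the 15 family groups: points are log2 fold changes, Bo over La, and lines their 95% intervals from limma. Only ptc-miR477a-3p passed the adjusted threshold (red), ptc-miR394a-5p and ptc-miR171e passed only the unadjusted one (yellow), and ptc-miR159a has the narrowest interval, -0.48 to 0.23.

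Calls were spread over the classes at near the shares of all tested (3.74% adjusted and 13.1% unadjusted), apart from the few star sequences. Of the 142 annotated miRNAs 6 passed the adjusted and 21 the unadjusted threshold, of the 52 predicted ones 2 and 6, and of the 20 star sequences 0 and 1. The summed level of the predicted and star sequences was 101550 ± 5169 RPM in Bo and 87583 ± 12781 RPM in La (SD, n = 3 each), with overlap. For 37 precursors both strands were tested, and the 2 log2 fold changes had the same sign in 29. Both strands passed the unadjusted threshold for ptc-miR477a and NW_011499850.1_2817, and 1 strand for 6 others.

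Most miRNAs seen in 1 group only had very few reads. Of the 257, 19 had reads in Bo and none in La, and 29 had reads in La and none in Bo, and 36 of these 48 had at most 3 reads in all. The most abundant were ptc-miR6476a in Bo (21 reads) and ptc-miR399e in La (29 reads, 28 of them in La3). Only ptc-miR6476a was found in all 3 Bo libraries and no La library, and 3 miRNAs, the star of NW_011499850.1_2817, ptc-miR478a and ptc-miR7827, in all 3 La libraries and no Bo library. The Bo libraries were the shallower, 834597 against 1115911 reads in all, so low miRNAs had less chance to be seen there.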

How the data were processed

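Small RNA libraries of 12 leaf samples were analysed. Known miRNAs had been matched to miRBase (release 21) with no mismatch and others predicted with miRDeep2. The authors deposited RPM values (reads scaled to 1000000 per sample, called TPM). Values were whole multiples of the smallest (tolerance 0.001). The reads so recovered served only for depth, limits and exact intervals. A count model such as the authors' DESeq was not used. The rule adopted here required 100 low values per sample to accept the values as counts, and there were 76 to 93.

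Log2(RPM + 1) was tested with limma 3.58.1 (R 4.3.3) with a variance trend, over all 12 samples in 4 groups, for the 214 miRNAs averaging at least 1 RPM in Bo and La. P-values were 2-sided. The pseudocount shrinks changes of low miRNAs on this scale. A library without reads can also make a fitted change larger than the ratio of the group means. For ptc-miR6438a the fitted log2 fold change was -2.385 and the log2 ratio of the means -1.88. The 16 alternatives covered RLE scaling, the total without ptc-miR159a, pseudocounts of 0.1 and 10, 3 filters, only the 6 samples, 2 replicate blocks and each library left out. None of the 6 libraries was a copy of another (smallest chi-square per degree of freedom 43.7). The test was checked on 20 simulated sets of 214 miRNAs, of which 40 were changed by a log2 value of 2. Of the changed ones 57.4% passed the adjusted threshold, so many true changes of that size could be missed. Of the unchanged ones 7.24% had an unadjusted limma p under 0.05, so that threshold was somewhat liberal there. Named miRNAs were those past the adjusted threshold, the 6 largest others per direction past the unadjusted one without overlap, the most abundant per family group, the 5 most abundant, 4 named in the study's text, and relatives of the first sets; the remaining ones that passed the unadjusted threshold were named after their values were seen. The comparison and lists were chosen with earlier results of these data known. Python 3.11.15, numpy 2.4.6, pandas 2.3.3, scipy 1.17.1 and matplotlib 3.10.9 were used.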

Additional observations from a re-analysis of the deposited data

How the results depend on the processing

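The count of 8 miRNAs past the adjusted threshold was 6 to 8 under the other scalings, pseudocounts, filters and choices of samples, and 11 with an adjusted p under 0.1. With each library left out it ran from 5 to 9, with 5 without Bo2 or La1 and 9 without Bo3. The unadjusted count of 28 was 24 to 34 over all 16 alternatives. No miRNA past the adjusted threshold changed direction. ptc-miR156a, ptc-miR156g, ptc-miR477a-3p, ptc-miR169n-3p and NW_011500122.1_25017 stayed past the adjusted threshold in every alternative, with a largest adjusted p of 0.036 (limma, ptc-miR169n-3p). Apart from left-out libraries, peu-miR2916 lost the call with a filter at 10 RPM (adjusted p = 0.060), with only the 6 samples (0.10) and with a replicate block, and ptc-miR477a-5p with a pseudocount of 10 (adjusted p = 0.15), without a filter (0.053) and with only the 6 samples (0.11). The cause was not tested. With the replicate block the adjusted count was 7 (all samples) or 6 (only the 6 samples) and the unadjusted one 33 or 24; peu-miR2916 then had an adjusted p of 0.059 or 0.22, and ptc-miR477a-5p of 0.13 in the second. Deviations of same-numbered Bo and La libraries correlated at 0.03, -0.19 and -0.20, and no Bo library correlated best with the La library of its own number, so the numbers were not taken as pairs of Bo and La; those of La and Ov correlated at 0.23, 0.50 and 0.50. The log2 ratio of the summed predicted miRNAs was 0.21 as deposited and 0.04 with RLE scaling, and that of miR159 and miR319 together -0.18 and -0.38. Family sums without ptc-miR159a in the total were added after seeing the data. Shallow libraries limit low miRNAs, since 64 of the 214 had no read in at least 1 of the 6 libraries.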

Other observations

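The La libraries differed among themselves more than the Bo libraries did for several miRNAs, here named after their values were seen. ptc-miR475a-5p, of a poplar family on pentatricopeptide repeat genes, had 235, 291 and 219.8 RPM in Bo, against 181, 1772 and 276 RPM in La, so that La2 alone was high. Ov2, at 1768 RPM, was likewise the only high library of its group (Ov1 184 and Ov3 218 RPM). ptc-miR482d-3p had 185, 183 and 201 RPM in Bo, against 198, 119 and 914 RPM in La, with La3 alone high, as was Ov3 at 909.9 RPM (Ov1 147 and Ov2 158 RPM). For ptc-miR6421-3p, which was low in La1 and La3, the Ov libraries had 4874, 5854 and 33.5 RPM.

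The predicted NW_011500051.1_21579 had 15.0, 3.16 and 979.6 RPM in Bo, against 6.89, 548 and 0 RPM in La, so that 1 library in each group was far above the others. Over the 101 tested miRNAs averaging 100 RPM or more, the median standard deviation of log2(RPM + 1) was 0.44 in Bo and 0.58 in La, and 58 of the 101 were less variable in Bo. ptc-miR6427-3p, named in the study's text, had 691, 389 and 750.4 RPM in Bo, against 1291, 1858 and 623 RPM in La, with a log2 fold change of -0.96 (95% interval -1.97 to 0.05, limma).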
